A study of Mus musculus with 6 samples.

Results

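The organic ion transporters of the SLC22 and SLCO families were followed in refed livers that lacked the receptor Gpr146. The members were all genes whose single platform symbol starts with Slc22a or Slco, with a pair of SLCO1 genes left out. This gave 37 of the 22180 genes on the array, 24 of SLC22 and 13 of SLCO. In 3 KO mice (Gpr146 whole-body knockout) and 3 WT littermates (Gpr146 intact), all male, on a C57BL/6J background and 24 weeks old, a fast of 16 hours was followed by 6 hours of refeeding. Each liver was measured on 1 whole-transcript array, and values are log2 probe set signals as deposited by the authors. The sources used here do not say which part of Gpr146 was deleted or how.

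Members of SLC22 carry charged small molecules across the plasma membrane: one branch takes up organic cations, another carnitine and related zwitterions, and the third, which is the most expanded in rodents, organic anions such as urate, drugs and steroid conjugates. The organic anion transporting polypeptides encoded by Slco genes take up bulkier amphipathic compounds, among them bile salts, thyroid hormones, conjugated steroids and prostaglandins. In liver, both families supply the hepatocyte with the substrates of drug and steroid metabolism, and several of their genes are known to be expressed at different levels in male and female rodents.

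Gpr146 measured 4.61, 4.28 and 3.87 in KO mice 1 to 3, against 5.96, 5.56 and 5.65 in WT mice 1 to 3, so the genotypes did not overlap. Array medians lay between 2.67 and 2.73, correlations between arrays were 0.983 to 0.988 across probe sets, and 0 pairs of columns were identical. Alb, the albumin gene that marks hepatocytes, was at 11.91 ± 0.01 in KO and 11.92 ± 0.02 in WT (SD, n = 3 each), and all 8 hepatocyte markers passed the signal filter. The labels name each liver as an individual mouse. Signal on an array is not comparable between probe sets of different genes, so levels are compared only between mice.

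Of the 37 members, 17 passed the signal filter (the upper 50% of genes by mean, a log2 signal of 2.99 or more) and were tested, among 11090 genes in all. By branch, 7 of 14 organic anion members were tested, 3 of 5 of the carnitine and zwitterion branch, all 3 less characterised SLC22 genes, 1 of 4 SLCO1 genes, both SLCO2 genes and 1 of 7 genes of SLCO3 to SLCO6. The only organic cation member, Slc22a2, was below the filter. In limma, 0 members passed an adjusted p of 0.05, where 0.0361% of all genes tested passed. Gpr146 itself, the gene knocked out, did not pass either, with a difference of -1.47 ± 0.19 (SE; limma adjusted p = 0.0702). That 0 members passed therefore does not show that the members were unchanged. At an unadjusted p under 0.05, 4 of the 17 were higher in KO and 0 were lower. Of all genes tested, 9.13% had such a p, 6.16% as higher and 2.98% as lower. The same 4 genes, Slc22a28, Slc22a30, Slco2a1 and Slc22a13, were those in which every KO value exceeded every WT value, a pattern seen in 9.63% of all genes tested. In 0 of the 17 did all KO values lie below all WT values (5.16% of all genes tested). The median difference of the 17, KO minus WT, was 0.04 on the log2 scale beside 0.03 for all genes tested, with 9 members above 0 and 8 below, so the set had no common direction.

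**Figure D1:**
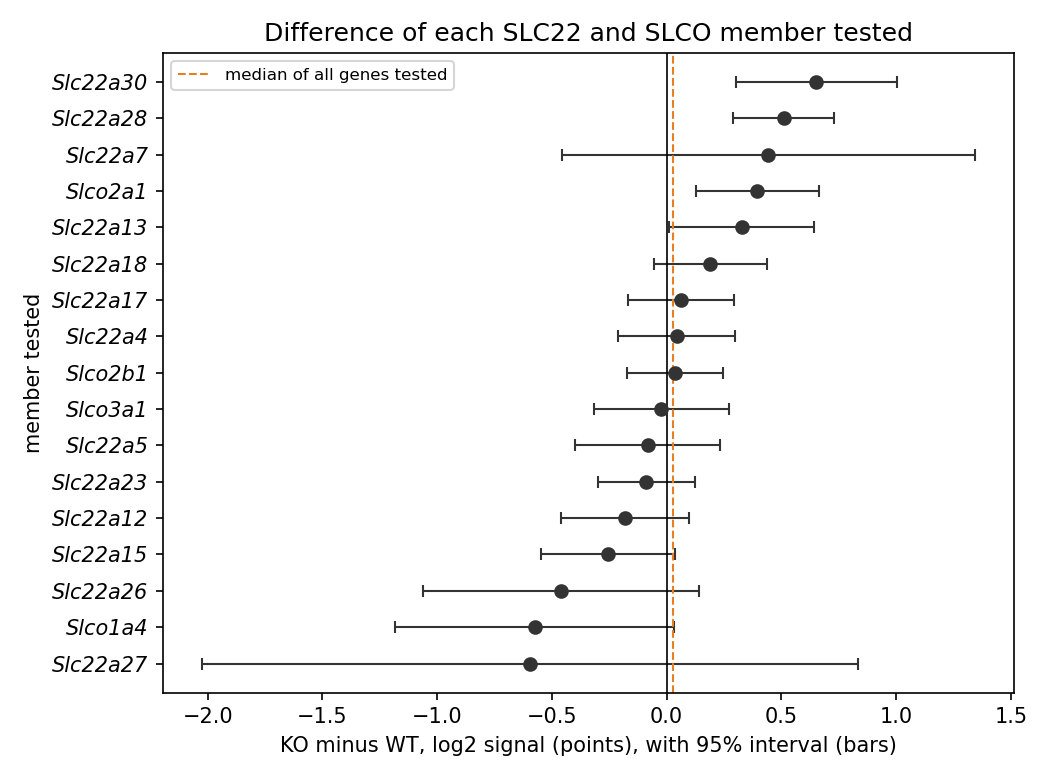
Difference of the 17 members tested, KO minus WT in log2 signal (horizontal axis, points) with the 95% interval of limma's fit (bars), ordered by size; the dashed line is the median of all genes tested, at 0.03. The intervals of Slc22a30, Slc22a28, Slco2a1 and Slc22a13 lie above 0, and those of Slc22a27 and Slc22a7 are the widest.

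The organic anion branch held the members with the smallest p. On chromosome 19, 6 of its genes follow each other in the reference gene order as Slc22a19, Slc22a26, Slc22a27, Slc22a28, Slc22a29 and Slc22a30, with only pseudogenes and 1 long non-coding RNA gene among them. Slc22a28, an organic anion transporter gene of the rodent expansion, measured 8.64, 8.68 and 8.77 in KO mice 1 to 3, against 8.28, 8.07 and 8.21 in WT mice 1 to 3. All KO mice lay above all WT mice, and the gap between the groups was wider than the range within either. The difference was 0.51 ± 0.10 (SE; 95% interval 0.29 to 0.73), a signal 1.43-fold higher in KO, with a limma adjusted p of 0.245 over all genes tested. The exact permutation p was 0.1, and no smaller one is possible with 3 mice a group.

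Slc22a30, the last gene of the cluster in this order, measured 6.43, 6.12 and 6.18 in KO mice, against 5.86, 5.62 and 5.29 in WT mice. The genotypes again did not overlap, with WT mouse 3 the lowest. The difference was 0.65 ± 0.15 (SE; 95% interval 0.30 to 1.00), or 1.57-fold, with a limma adjusted p of 0.306. In the 16 alternatives run, Slc22a28 stayed between 0.45 and 0.56 and Slc22a30 between 0.50 and 0.79. The limma adjusted p ran from 0.0991 with trend and robust options to 0.536 for Slc22a28, and from 0.203 to 0.539 for Slc22a30.

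The promoters of 3 of the cluster's genes are shown because those of Slc22a28 and Slc22a30 are nearly identical. The sequences are RefSeq's, build GRCm38.p6, minus strand, 250 bases before to 50 after the gene's start. Slc22a28 (chr19:8131933-8132232) and Slc22a30 (chr19:8405056-8405355) aligned over 294 positions, of which 288, or 98.0%, were identical; capitals mark the 6 that differ. Slc22a29 (chr19:8218851-8219150), which lies between them, was 74.6% identical to Slc22a28 over 283 aligned positions. Capitals mark its bases that differ from Slc22a28 within the aligned stretch. Gaps cannot be marked, so it has 53 capitals for 72 differing positions. In all 3 sequences, bases outside the aligned stretch are in lower case though they have no partner.
Slc22a28: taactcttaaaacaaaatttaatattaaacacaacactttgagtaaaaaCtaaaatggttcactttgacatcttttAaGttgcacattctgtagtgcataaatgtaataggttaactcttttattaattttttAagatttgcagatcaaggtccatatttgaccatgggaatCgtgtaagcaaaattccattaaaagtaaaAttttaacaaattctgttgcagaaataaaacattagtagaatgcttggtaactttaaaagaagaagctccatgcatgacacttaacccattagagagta
Slc22a30: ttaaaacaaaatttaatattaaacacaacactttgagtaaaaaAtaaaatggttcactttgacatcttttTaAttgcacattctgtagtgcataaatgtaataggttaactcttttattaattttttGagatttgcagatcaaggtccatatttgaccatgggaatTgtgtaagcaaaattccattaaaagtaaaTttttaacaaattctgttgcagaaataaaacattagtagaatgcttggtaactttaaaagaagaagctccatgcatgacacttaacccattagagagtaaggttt
Slc22a29: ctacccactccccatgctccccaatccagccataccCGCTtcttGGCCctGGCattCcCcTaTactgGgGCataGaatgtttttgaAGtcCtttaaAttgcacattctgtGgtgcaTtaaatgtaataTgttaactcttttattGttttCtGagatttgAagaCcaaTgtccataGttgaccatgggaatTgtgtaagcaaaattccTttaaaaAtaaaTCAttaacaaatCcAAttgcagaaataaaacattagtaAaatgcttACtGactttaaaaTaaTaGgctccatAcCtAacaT

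Slc22a29 was below the signal filter, at 2.45, 1.67 and 1.63 in KO mice and 1.87, 2.03 and 1.56 in WT mice, with overlapping genotypes. Both genes of the near-identical promoter pair were well above the filter, with every KO value over every WT value. The array's probe sequences were not analysed here, so whether RNA of Slc22a28 and Slc22a30 also reached the other's probes was not tested. Their order within the KO mice differed: KO mouse 1 was the lowest of the 3 for Slc22a28 and the highest for Slc22a30. Within the WT mice, WT mouse 1 was the highest for both genes. The order of so few mice is no test of shared probes.

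The neighbours on the other side of Slc22a28 had a different pattern. Slc22a26 measured 3.69, 2.66 and 2.80 in KO mice, against 3.22, 3.82 and 3.49 in WT mice. KO mouse 1 lay among the WT mice and the other KO mice below them, for a difference of -0.46 ± 0.26 (SE; limma adjusted p = 0.632); it was -0.78 with KO mouse 1 left out and -0.27 with KO mouse 2 left out. Slc22a27 measured 4.27, 3.32 and 1.73 in KO mice, against 3.33, 4.76 and 3.03 in WT mice. As with Slc22a26 in KO mice 2 and 3, KO mouse 3 lay under the filter value of 2.99 for Slc22a27. Its values spread over 3 log2 units across the 6 mice, and the difference of -0.60 ± 0.63 (SE; limma adjusted p = 0.815) was no larger than its error and was 0.09 without KO mouse 3. Slc22a19, an organic anion transporter known from kidney, was below the filter at 1.68, 1.65 and 1.64 in KO and 1.54, 1.67 and 1.75 in WT.

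**Figure D2:**
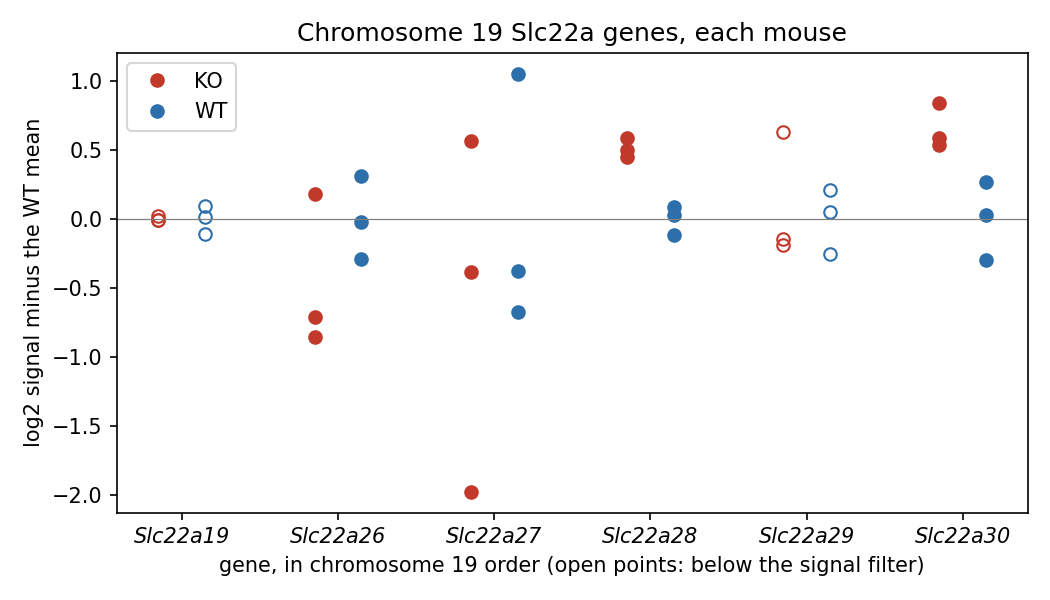
The 6 Slc22a genes of the chromosome 19 cluster from Slc22a19 to Slc22a30, in gene order (horizontal axis), with each mouse's log2 signal minus the WT mean of that gene (vertical axis). Red points are KO and blue points WT, and open points are genes below the signal filter. The KO points lie above all WT points for Slc22a28 and Slc22a30, and overlap them for the other 4 genes.

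The promoter of Slc22a26 (chr19:7802618-7802917, minus strand, same source) is shown for its match, in capitals, to TTCNNNGAA, the motif read by STAT5 and by the repressor BCL6, which act on sex-dependent liver genes.
Slc22a26: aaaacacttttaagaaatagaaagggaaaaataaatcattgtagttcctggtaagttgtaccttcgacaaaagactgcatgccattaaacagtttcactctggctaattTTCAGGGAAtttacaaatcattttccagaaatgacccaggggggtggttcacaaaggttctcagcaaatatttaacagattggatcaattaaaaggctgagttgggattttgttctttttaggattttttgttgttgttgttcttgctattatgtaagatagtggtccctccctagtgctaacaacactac
On either strand this palindrome was found in 8.30% of the 32851 promoters in the table, and in 7 of 37 promoters (18.9%) listed for 32 members, those of Slc22a15, Slc22a16, Slc22a19, Slc22a26, Slco1a5 and Slco2b1. The promoters of Slc22a28 and Slc22a30 hold no match in these windows. A match is a description of the letters, not a site.

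Slc22a13, whose human protein carries urate and nicotinate, measured 4.83, 4.51 and 4.43 in KO mice, against 4.39, 4.35 and 4.04 in WT mice. The genotypes did not overlap, but the lowest KO mouse lay close to the highest WT mouse. The difference was 0.33 ± 0.14 (SE; limma adjusted p = 0.532), and it was 0.21 without KO mouse 1 and 0.22 without WT mouse 3. Its neighbour Slc22a13b, a transcribed pseudogene, was below the filter, with a difference of 0.05. Slc22a12, the urate reabsorber of the kidney, was at -0.18 ± 0.12 (SE), and at -0.07 without WT mouse 1 and -0.28 without WT mouse 3.

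**Figure D3:**
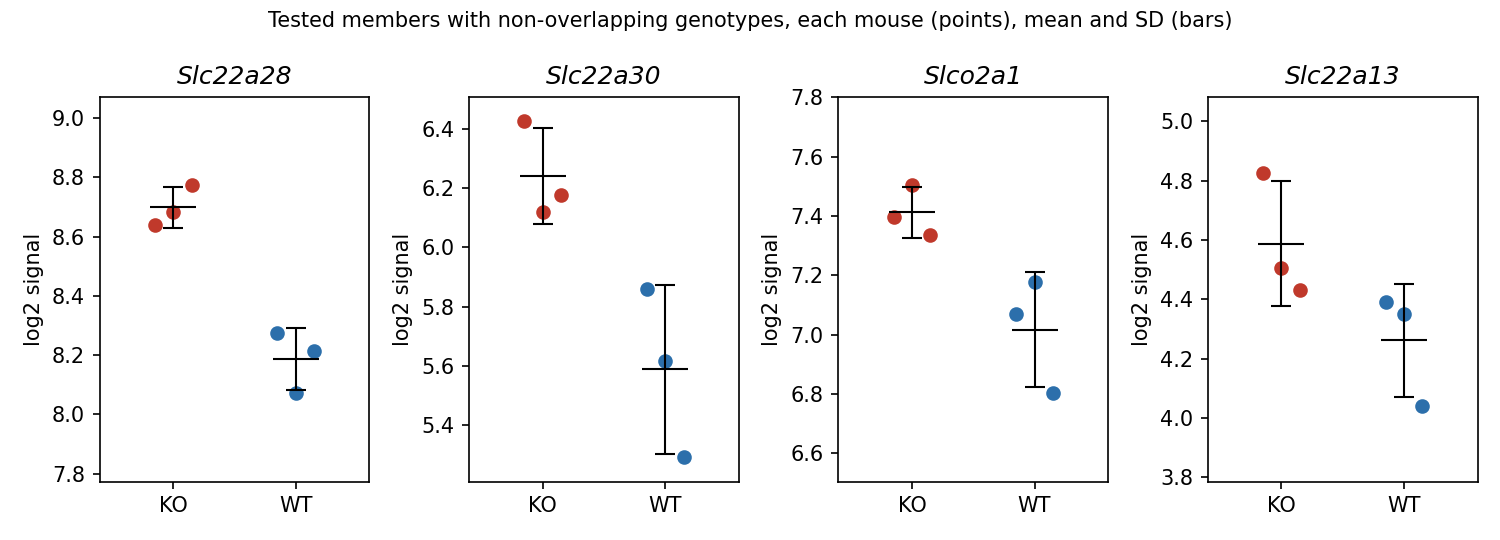
Log2 signal (vertical axis, each panel spanning the same width) of the 4 tested members whose genotypes did not overlap, with 1 point for each of 3 KO mice (left, red) and 3 WT mice (right, blue) and the mean ± SD as bars. The gap between genotypes is wider than the spread within them for Slc22a28, and narrow for Slc22a13.

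Slc22a7, which encodes the hepatic organic anion transporter OAT2, measured 6.16, 6.06 and 7.23 in KO mice, against 6.39, 5.19 and 6.54 in WT mice. KO mouse 3 was the highest and WT mouse 2 the lowest of the 6, and the genotypes overlapped. The difference was 0.44 ± 0.40 (SE; 95% interval -0.46 to 1.34; limma adjusted p = 0.775). Leaving out WT mouse 2 gave 0.02 and leaving out KO mouse 3 gave 0.07.

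In the carnitine and zwitterion branch, 0 of 3 tested members had an unadjusted p under 0.05. Slc22a5, which encodes the carnitine transporter OCTN2, measured 4.96, 5.38 and 5.15 in KO mice, against 5.24, 5.43 and 5.06 in WT mice. These ranges overlapped almost fully, and the difference was -0.08 ± 0.14 (SE; 95% interval -0.40 to 0.23; limma adjusted p = 0.901). Slc22a4, the ergothioneine transporter and its neighbour on chromosome 11, was at 0.04 ± 0.11 (SE). Slc22a15, whose human protein carries zwitterions, was at -0.26 ± 0.13 (SE; limma adjusted p = 0.594), with KO mouse 1 among the WT mice.

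Other genes of the carnitine system were counted beside Slc22a5, from a list chosen with earlier results of these data known. The list also holds Acadl and Acadm, acyl-CoA dehydrogenase genes of fatty acid oxidation. Of 10 tested, 9 had a negative difference and the median was -0.15, beside 4688 negative differences in 11090 and a median of 0.03 for all genes tested. The list's mean deviation was -0.07, -0.03 and -0.10 in KO mice, against 0.02, 0.18 and 0.0055 in WT mice. WT mouse 2, also the highest in the female-biased genes described further on, stood above the rest; without it the median was -0.09 and 8 of 10 differences were negative. At an unadjusted p under 0.05 there was 1 lower, Crot, the peroxisomal carnitine octanoyltransferase, and 0 higher (2.98% and 6.16% of all genes tested). Crot was at 9.24, 9.12 and 9.03 in KO mice, against 9.40, 9.61 and 9.26 in WT mice (-0.29 ± 0.12, SE; limma adjusted p = 0.502). In 4 of the 10, every KO value lay below every WT value, beside 5.16% of all genes tested.

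The 3 less characterised SLC22 genes were close between genotypes. Slc22a18, an imprinted gene, measured 6.83, 6.85 and 6.94 in KO mice, against 6.55, 6.87 and 6.63 in WT mice. WT mouse 2 lay among the KO mice, and the difference was 0.19 ± 0.11 (SE; limma adjusted p = 0.631), or 0.28 without WT mouse 2 and 0.12 without WT mouse 1. Slc22a23 was at -0.09 ± 0.09 (SE), and Slc22a17, a receptor for lipocalin 2, at 0.06 ± 0.10 (SE).

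Among the SLCO members, both SLCO2 genes were tested. Slco2a1, the prostaglandin transporter, measured 7.40, 7.50 and 7.33 in KO mice, against 7.07, 7.18 and 6.80 in WT mice. All KO mice lay above all WT mice, with WT mouse 3 the lowest. The difference was 0.40 ± 0.12 (SE; 95% interval 0.13 to 0.66), or 1.32-fold, with a limma adjusted p of 0.373 and an exact permutation p of 0.1. Leaving out WT mouse 3 gave 0.29 and leaving out WT mouse 2 gave 0.48. The gene is known from vascular endothelium, and in bulk liver more cells of a type and more RNA per cell cannot be told apart. All 10 sinusoidal endothelial markers were tested, with a median difference of -0.0037 (5 positive, 5 negative) and 0 at an unadjusted p under 0.05. Their mean deviation was 0.01, -0.09 and 0.06 in KO mice and 0.0013, 0.15 and -0.12 in WT mice (the genotypes overlapped). The part of endothelial cell content in the Slco2a1 values was not tested.

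Slco2b1, whose human protein takes up steroid sulfates, measured 7.89, 7.72 and 7.84 in KO mice, against 7.74, 7.83 and 7.76 in WT mice. The ranges overlapped, and the difference was 0.04 ± 0.09 (SE; 95% interval -0.17 to 0.25; limma adjusted p = 0.934). A further probe set of this gene, weak in signal, read 3.38, 3.36 and 3.03 in KO mice and 2.94, 3.22 and 3.07 in WT mice. The mean of both probe sets differed by 0.11 (limma adjusted p = 0.783). Slco3a1, whose human protein carries prostaglandins and thyroid hormone, was at -0.02 ± 0.13 (SE).

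Slco1a4, which takes up bile salts, cardiac glycosides and steroid conjugates, measured 6.69, 6.44 and 5.94 in KO mice, against 6.89, 7.47 and 6.44 in WT mice. WT mouse 2 was the highest and KO mouse 3 the lowest, and WT mouse 3 lay level with KO mouse 2. The difference was -0.58 ± 0.27 (SE; 95% interval -1.18 to 0.03; limma adjusted p = 0.564), -0.31 without WT mouse 2, -0.37 without KO mouse 3 and -0.82 without WT mouse 3.

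Slco1a4 is known to be higher in female than in male mouse liver, and the mice differed in sex-biased genes. The mean of 6 female-biased genes, each taken relative to its own mean over the 6 mice, was 0.45, -0.55 and -0.82 in KO mice, against 0.30, 1.23 and -0.62 in WT mice. Genes were not scaled by their spread, so those with the widest range weigh most in a list mean. In the female-biased list this was Cyp2b9, at 8.43, 5.13 and 5.41 in KO mice and 7.38, 10.32 and 4.61 in WT mice. The mean of 15 male-biased genes was -0.37, 0.30 and 0.68 in KO mice, against -0.05, -0.79 and 0.23 in WT mice. KO mouse 1 and WT mouse 2 were thus the mice with the highest female-biased and the lowest male-biased mean in their genotypes. For example Hsd3b5, a male-specific steroid enzyme gene with the widest range of its list, read 3.24, 7.35 and 7.74 in KO mice and 5.52, 1.51 and 6.69 in WT mice. Of the female-biased list 6 of 6 differences were negative and of the male-biased list 14 of 15 were positive, with 1 gene lower (Acot3, -1.13 ± 0.39, SE) and 2 higher (C8a, 0.60 ± 0.19, and Elovl3, 0.70 ± 0.26) at an unadjusted p under 0.05, and 0 past the adjusted threshold. Of all genes tested, 6402 of 11090 differences were positive and 4688 negative, with 6.16% higher and 2.98% lower at such a p.

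Each of the 17 members was set against both list means over the 6 mice, 34 relations in all. The list means ran in nearly opposite order over the mice, so a member's relations with both are not separate evidence. Slco1a4 had the highest Pearson correlation with the female-biased mean, r = 0.94 (exact permutation p = 0.0056, adjusted p = 0.0944; Spearman rho = 0.89, exact permutation p = 0.0333, adjusted p = 0.189). Without the mice farthest from the median, KO mouse 3 and WT mouse 2, r was 0.88. Against the male-biased mean, Slco1a4 had r = -0.94 (exact permutation p = 0.0097, adjusted p = 0.110), and r was -0.68 without the same mice. Slc22a27 had r = 0.88 with the female-biased mean (exact permutation p = 0.0181, adjusted p = 0.153; rho = 1.0, exact permutation p = 0.0028, adjusted p = 0.0944; r = 0.75 without those mice). With the male-biased mean its r was -0.96 (exact permutation p = 0.0042, adjusted p = 0.0944; rho = -0.94, exact permutation p = 0.0167, adjusted p = 0.189; r = -0.88 without them).

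Slc22a7 ran the other way, with r = 0.88 against the male-biased mean (exact permutation p = 0.025, adjusted p = 0.170; rho = 0.66, exact permutation p = 0.175, adjusted p = 0.458). That relation rests on KO mouse 3 and WT mouse 2, since r was 0.15 without them. Slc22a28 and Slc22a30 had r = -0.58 and r = -0.06 with the female-biased mean (exact permutation p = 0.174 and 0.907, adjusted p = 0.472 and 0.993; rho = -0.60 and -0.03, exact permutation p = 0.242 and 1.0, adjusted p = 0.548 and 1.0). With the male-biased mean they had r = 0.62 and r = 0.14 (exact permutation p = 0.194 and 0.799, adjusted p = 0.472 and 0.970; rho = 0.77 and 0.20, exact permutation p = 0.103 and 0.714, adjusted p = 0.349 and 0.881). Without KO mouse 3 and WT mouse 2, r was 0.13 and 0.61 with the female-biased mean and -0.20 and -0.61 with the male-biased mean. After each genotype was centred on its own mean, r of Slc22a28 was -0.74 with the female-biased mean and 0.86 with the male-biased mean, and r of Slc22a30 was 0.67 and -0.51. The same centring gave 0.95 for Slco1a4 and 0.87 for Slc22a27 with the female-biased mean, and 0.86 for Slc22a7 with the male-biased mean. Slc22a26 and Slc22a15 had r = 0.76 and r = 0.82 with the female-biased mean (exact permutation p = 0.0903 and 0.0542, adjusted p = 0.307 and 0.205). With the male-biased mean they had r = -0.84 and r = -0.83 (exact permutation p = 0.0431 and 0.0472, adjusted p = 0.201 for both). Without KO mouse 3 and WT mouse 2, r was 0.50 and 0.55 with the female-biased mean and -0.70 and -0.65 with the male-biased mean. None of the 34 relations passed after adjustment. With KO mouse 1 and WT mouse 2 both left out, Slc22a28, Slc22a30 and Slco2a1 were at 0.48, 0.57 and 0.48, Slco1a4 and Slc22a26 at -0.47 and -0.62, and Slc22a7 at 0.18. The part of sex-dependent expression in these differences was not tested beyond this.

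**Figure D4:**
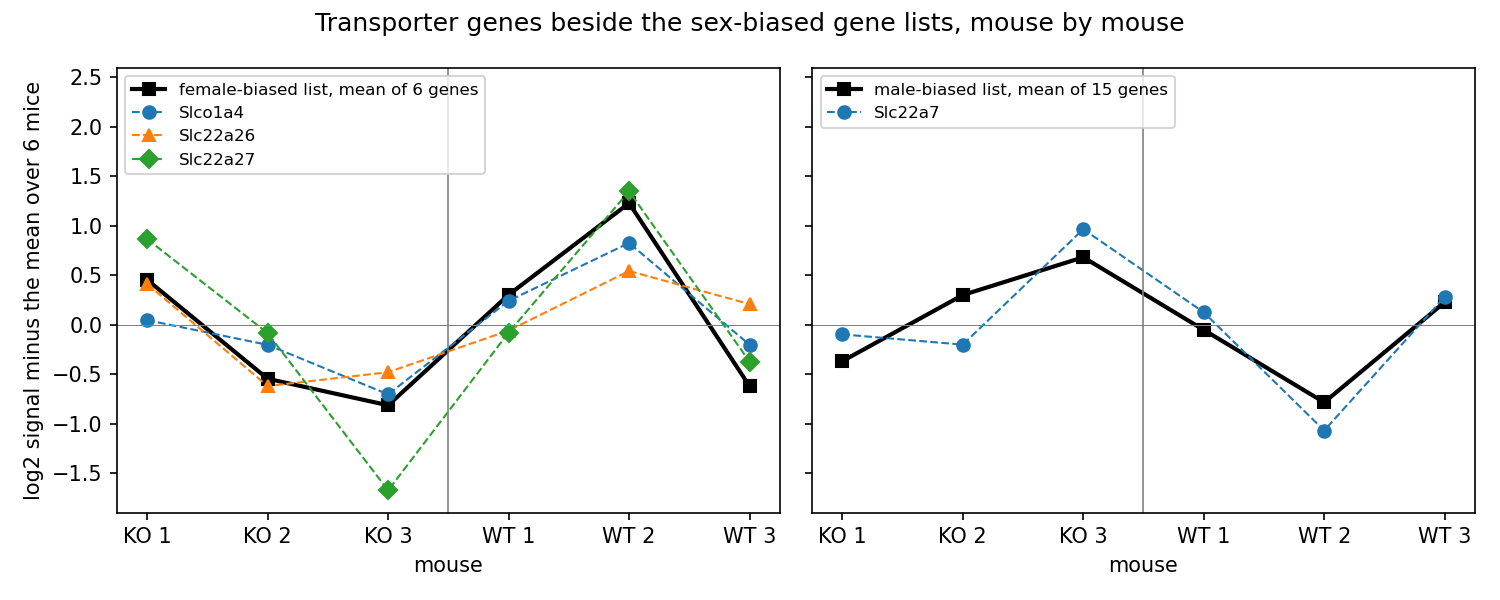
Log2 signal minus each gene's mean over the 6 mice (vertical axis) for KO mice 1 to 3 (left of the grey line) and WT mice 1 to 3 (right), with lines joining a gene's points only to guide the eye. Slco1a4, Slc22a26 and Slc22a27 lie highest in WT mouse 2, where the mean of 6 female-biased genes (black, left panel) is 1.23, and Slc22a7 is lowest in WT mouse 2, where the mean of 15 male-biased genes (black, right panel) is -0.79. Slc22a26 and Slc22a27 were added after their values were seen. Among tested members not drawn, Slc22a15 and Slc22a5 were also highest in WT mouse 2, and Slc22a28 was lowest there.

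The 20 members below the signal filter had mean values of 1.49 to 2.56 and differences between -0.26 and 0.17. Fitted without a filter, 0 of them had an unadjusted p under 0.05. In 2 of the 20, Slco1a6 and Slco6c1, every KO value exceeded every WT value, beside 4.45% of all genes below the filter. Slco6c1 averaged 1.56 ± 0.05 in KO and 1.43 ± 0.08 in WT (SD, n = 3 each). The smallest p-values there were those of Slco1a6, at 1.91, 1.85 and 1.85 in KO mice and 1.81, 1.61 and 1.69 in WT mice, and Slc22a20, at 2.44, 2.30 and 2.27 in KO mice and 2.44, 2.39 and 2.95 in WT mice. Members known from other organs were in this set, among them Slc22a2, Slc22a6 and Slc22a8, the basolateral cation and anion transporters of the kidney tubule, and Slco6b1, Slco6c1 and Slco6d1, which are known from testis. Signals this low do not show that the genes are absent from liver.

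Other hepatic transporters and regulators were counted from lists in the same fit. Of 17 other uptake and efflux transporters tested, 1 was higher at an unadjusted p under 0.05 and 0 were lower, beside 6.16% and 2.98% of all genes tested, with a median difference of 0.06; the 1 was Abcb11, whose protein exports bile salts into bile, with 8.75, 8.61 and 9.09 in KO mice and 8.48, 8.38 and 8.22 in WT mice (0.45 ± 0.14, SE; limma adjusted p = 0.389). Of 16 regulators of transporter genes, 2 were higher and 1 was lower, beside the same shares, and the median was 0.04. Nr1i2, the xenobiotic receptor PXR, for which Slco1a4 is a known target in mouse, measured 7.44, 7.63 and 7.71 in KO mice, against 7.30, 7.39 and 7.12 in WT mice (0.32 ± 0.11, SE; limma adjusted p = 0.442). Its KO values all exceeded its WT values.

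Bcl6, the repressor mentioned above, measured 6.81, 6.88 and 7.25 in KO mice, against 6.50, 6.26 and 6.39 in WT mice (0.59 ± 0.13, SE; limma adjusted p = 0.283). Onecut1, a hepatocyte transcription factor also called HNF6, measured 5.18, 5.99 and 5.91 in KO mice, against 6.31, 7.21 and 6.68 in WT mice (-1.04 ± 0.26, SE; limma adjusted p = 0.336). Neither gene's genotypes overlapped, and neither passed over all genes tested. Of 4 PDZ and accessory proteins, which anchor transporters at the membrane, 0 had an unadjusted p under 0.05, and Slc9a3r1 and Slc9a3r2 were at 0.24 ± 0.12 and -0.10 ± 0.10 (SE).

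Markers of other cell types were read beside the members. Median differences were -0.0020 for 8 hepatocyte genes, 0.17 for 10 Kupffer cell genes, -0.02 for 9 stellate cell genes and 0.28 for 2 bile duct genes, of which Sox9 was higher at an unadjusted p under 0.05 (0.41 ± 0.14, SE). Pancreatic acinar genes were at -0.51 over 3 genes, with Try4 at -0.51 ± 0.21 (SE) and a mean deviation of 0.99 in WT mouse 1 beside -0.35 to -0.07 in all other mice. Fat cell genes were at -0.67 over 2 genes, with Cidea at -1.31 ± 0.45 (SE), and the defining fat gene Adipoq was below the filter. T and NK and B and plasma cell markers had 1 tested gene each, at 0.03 and 0.08, and 0 neutrophil and monocyte or erythroid markers passed the filter. The part of these cell types in the members' values was not tested.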

How the data were processed

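Liver RNA of 6 mice was measured on Affymetrix whole-transcript arrays, 1 per mouse, per the labels' protocols. The authors deposited 1 table of log2 values for 41345 probe sets; their summary and normalization methods: not given in the sources used here. That they are log2 was read from the array maxima (12.1 to 12.2), which lie above 11.1, a 16-bit scanner's top reading in natural log. All 6 columns were matched to a mouse, and 0 were left out. Platform symbols were updated by Entrez number to RefSeq's GRCm38.p6 gene table. Probe sets with 1 symbol numbered 23521, and the one with the highest mean was kept per gene; 1814 with several symbols and 16010 with none were not used.

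Genes in the upper 50% of mean signal were fitted by lmFit and eBayes of limma 3.58.1, R 4.3.3 (KO minus WT, two-sided, no covariate), with Benjamini-Hochberg adjustment over 11090 genes at 0.05; 4 genes passed, 0 of them members. The median SE of a difference was 0.11, and the number of arrays limits the precision. The fit was tested on simulated data. Exact permutation tests were two-sided over the 6 mice, in Python 3.11.15 with scipy 1.17.1. Promoters were aligned with Biopython 1.88 (match 1, mismatch -1, gap opening -3, gap extension -1, free end gaps), and identity excludes the overhanging ends. Members and lists were chosen with earlier results of these data known. Values in every mouse are given for tested members with an unadjusted p under 0.05 or without overlap and for Slc22a5, Slc22a7, Slc22a18, Slco1a4, Slco2a1 and Slco2b1, which have well known roles; the values of Slc22a26, Slc22a27 and the members named below the filter, other than the 2 of smallest p, were added after they were seen. In other lists up to 4 genes with an unadjusted p under 0.05, otherwise the 2 of smallest p, could be named. Hsd3b5 and Cyp2b9 were named after their values were seen. Alternatives covered the signal filter, probe set choice, median centring, quantile normalization, array weights, limma's trend and robust options, a pseudocount of 8, the replicate number as a block and each mouse left out.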

Additional observations from a re-analysis of the deposited data

How the results depend on the processing

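Under all 16 alternatives, 0 members passed the adjusted threshold, and the members at an unadjusted p under 0.05 numbered 3 to 6. Slc22a28, Slc22a30 and Slco2a1 were at an unadjusted p under 0.05 in all 16, Slc22a13 in 8 of the 15 that tested it. Of all genes tested, 4 passed; the count was 0 in the upper 25% of signal, 2 after median centring, 1 with the pseudocount, 1 with the replicate block and 1 with KO mouse 1 and WT mouse 2 both out, a choice made after seeing the data, and with single mice left out it ran from 1 to 51, the highest without WT mouse 3. The cause was not tested. The labels name no pairing of mice by replicate number. Same-numbered mice correlated at 0.06, -0.19 and 0.15 in their deviations from the genotype means. With 3 mice a group, these values cannot show whether mice were paired. The block changed no member's call, as 0 passed with or without it, but it put 5 members, now with Slco1a4, at an unadjusted p under 0.05. The median difference of the members was 0.19 in the upper 25% of signal, which keeps 9 of the 17, and ran from -0.0026 to 0.07 with single mice left out; median centring gave -0.0051. The median of the carnitine list, run through the same alternatives after seeing the data, stayed negative, from -0.19 (median centring) to -0.08 (KO mouse 1 and WT mouse 2 both out).

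Signs turned in 11 cases, in 6 members that did not pass in any setting. With single mice left out, Slc22a17 ran from -0.011 (KO mouse 1 out) to 0.12, Slc22a27 from -1.18 to 0.092 (KO mouse 3 out), Slc22a4 from -0.025 to 0.13, Slco2b1 from -0.0026 to 0.086, Slco3a1 from -0.12 to 0.077 and Slc22a5 from -0.19 to 0.019. Slco2b1 was at -0.0051 after median centring, and Slc22a5 at 0.11 with KO mouse 1 and WT mouse 2 both out. Weak signals compress folds on an array, so differences of members near the filter may understate those of their RNA.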
